A study of Homo sapiens with 12 samples.

Results

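The genes described are 34 members of the ATP-dependent chromatin remodeler families, namely 18 subunits of SWI/SNF complexes, 5 genes of the ISWI group, 8 CHD helicases and 3 ATPases of the INO80 family. They were taken by symbol from a fixed list of names and matched to 34 of the 60662 Ensembl genes in the count files. All 34 passed the filters on low values for RNA and for footprints. The cells were HEK293T, an established human embryonic kidney line labelled WT. They were treated for 6 h with 20 µM STM2457, which blocks METTL3, the enzyme that writes m6A, in 0.2% DMSO, or with 0.2% DMSO alone. Both arms received an extra 10% of serum 1 h before lysis and cycloheximide just before lysis. RNA-seq comprised 4 libraries per arm and Ribo-seq, which sequences the fragments that ribosomes protect from nuclease, 2 libraries per arm. The comparison asks how these genes differ in RNA, in ribosome footprints and in their ratio after depletion of m6A, the question given in the series design.

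Chromatin remodelers use ATP to slide, evict or exchange nucleosomes, and so set which stretches of DNA other proteins can reach. SWI/SNF complexes are built around SMARCA4 or SMARCA2 on shared core subunits, and exist in a canonical, a polybromo and a non-canonical form with different accessory subunits. ISWI enzymes space nucleosomes, CHD proteins carry chromodomains that read histone tails, and INO80-family enzymes exchange histone variants. m6A is a methyl mark on adenosines of mRNA that is known, among other effects, to mark transcripts for decay.

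The RNA libraries held 43112223 to 51425432 gene counts in the STM2457 arm and 45535853 to 51000283 in the DMSO arm. The footprint libraries held 4039314 and 3898620 reads with STM2457, against 4711513 and 3198063 with DMSO. The ERCC spike-in sequences took 0.415% to 0.466% of the counts with STM2457 and 0.389% to 0.408% with DMSO. The HEK293T markers LIN28B, PAX2 and NEFM were present, with LIN28B at 170 ± 14.1 CPM (gene counts scaled to a common library size) with STM2457 and 169 ± 9.05 CPM with DMSO (SD, n = 4 each). PAX2 was at 4.71 ± 0.944 CPM with STM2457 and 4.71 ± 0.766 CPM with DMSO, and NEFM at 275 ± 11.6 CPM with STM2457 and 244 ± 10.4 CPM with DMSO. The 5 blood markers summed to 3.28 to 3.45 CPM with STM2457 and 3.09 to 4.2 CPM with DMSO, with PTPRC and CD3E near or at 0. The 7 fibroblast markers summed to 18.4 to 19.8 CPM and 17.7 to 22.3 CPM in the same order of arms, nearly all of it from COL1A1, which was at 16.4 CPM with STM2457 and 17 CPM with DMSO. The 6 epithelial carcinoma markers summed to 54.6 to 55.8 CPM with STM2457 and 66.8 to 69.4 CPM with DMSO, KRT19 being at 0 in every library. Most of both sums came from KRT18, at 39 CPM with STM2457 and 51.9 CPM with DMSO (log2 -0.41, edgeR adjusted p = 1.25e-07). Whether the differences of NEFM and of the epithelial sum between the arms have a part in the results below was not tested. In bulk libraries fewer cells of a type and less RNA per cell cannot be told apart.

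Promoter sequences are shown for 3 genes whose RNA rose with STM2457 (SRCAP, ARID1A and CHD8) and for SMARCA4, whose mean CPM was the same in both arms. They were chosen after the values were seen, to set genes that moved in CPM beside one that did not. Each is the 150 bases just upstream of the annotated start in RefSeq (GRCh38.p14), written 5′ to 3′ on the gene's own strand. Capitals mark the GC box (GGGCGG or its reverse complement CCGCCC) and the CCAAT box (CCAAT or ATTGG).
SRCAP: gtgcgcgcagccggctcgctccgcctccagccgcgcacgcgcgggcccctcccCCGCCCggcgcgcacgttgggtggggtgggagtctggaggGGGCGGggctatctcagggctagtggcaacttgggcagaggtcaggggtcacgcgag
ARID1A: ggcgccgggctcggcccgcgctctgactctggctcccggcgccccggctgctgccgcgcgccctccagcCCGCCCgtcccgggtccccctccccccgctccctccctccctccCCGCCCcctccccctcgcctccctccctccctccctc
CHD8: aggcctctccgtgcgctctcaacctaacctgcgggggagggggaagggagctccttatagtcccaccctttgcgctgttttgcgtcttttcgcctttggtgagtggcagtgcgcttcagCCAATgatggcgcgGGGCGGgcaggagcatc
SMARCA4: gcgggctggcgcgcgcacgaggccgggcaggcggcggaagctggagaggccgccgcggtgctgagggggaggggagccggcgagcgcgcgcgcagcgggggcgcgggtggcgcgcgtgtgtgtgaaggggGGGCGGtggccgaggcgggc
The windows lie at chr16:30699021-30699170 on the plus strand for SRCAP, chr1:26695865-26696014 on the plus strand for ARID1A, chr14:21437276-21437425 on the minus strand for CHD8 and chr19:10960880-10961029 on the plus strand for SMARCA4. They hold 18, 17, 10 and 26 CpG dinucleotides in that order. RefSeq promoters were matched for 27 of the 34 genes, by the first entry of each symbol. The comparison takes all 35116 entries and was not limited to genes expressed in these cells. Which start these cells use was not examined. In the window of 250 bases before the start, a GC box on either strand stood in 18 of the 27, or 66.7%, against 42.6% of 35116 RefSeq promoters. It was found in 6 of 8 matched genes that rose in RNA, in 10 of 13 that did not pass the test and in 2 of 6 that fell. A TATA box (TATAAA or TTTATA) was found in none of the 27, against 10.7% of all promoters, and a CCAAT box in 29.6%, against 32% of all. The 27 windows held a median of 26 CpG dinucleotides, with CHD2 at 0 and SMARCA4 and EP400 at 44, against a median of 11 over all promoters. These matches are descriptions of letters in the window.

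With STM2457 the RNA of the ARID scaffolds, SRCAP and most CHD genes was higher, and that of 5 core and accessory SWI/SNF subunits was lower. The SWI/SNF ATPases were level in CPM. In RNA, 11 of the 34 genes rose and 6 fell at an adjusted p under 0.05 (edgeR quasi-likelihood test, Benjamini-Hochberg over 17807 genes), or 32.4% and 17.6%. Among all 17807 genes 26.2% were higher and 21.6% lower by the same test, 47.8% in all, so the members' shares lie near the background. The members' median log2 fold change was 0.04 and that of all genes 0.00. Of the genes, 9 were higher and 6 lower in every STM2457 library than in any DMSO library, against 24.9% and 19.8% of all genes (44.7% in either direction). Nothing in the labels ties replicates to cultures of their own, so the p-values rest on the spread among libraries, part or all of which could be technical. On a scale set by the ERCC spike-ins the median of all genes lay at -0.19 on the log2 scale and that of the members at -0.16. The changes below are relative to the trimmed mean of M-values (TMM) scaling, and 7 members were higher and 20 lower on the spike-in scale, where 2159 of the 17807 genes were higher and 8383 lower. The 7 were SRCAP, ARID1A, ARID1B, ARID2, CHD7, CHD8 and BAZ1B.

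**Figure D1:**
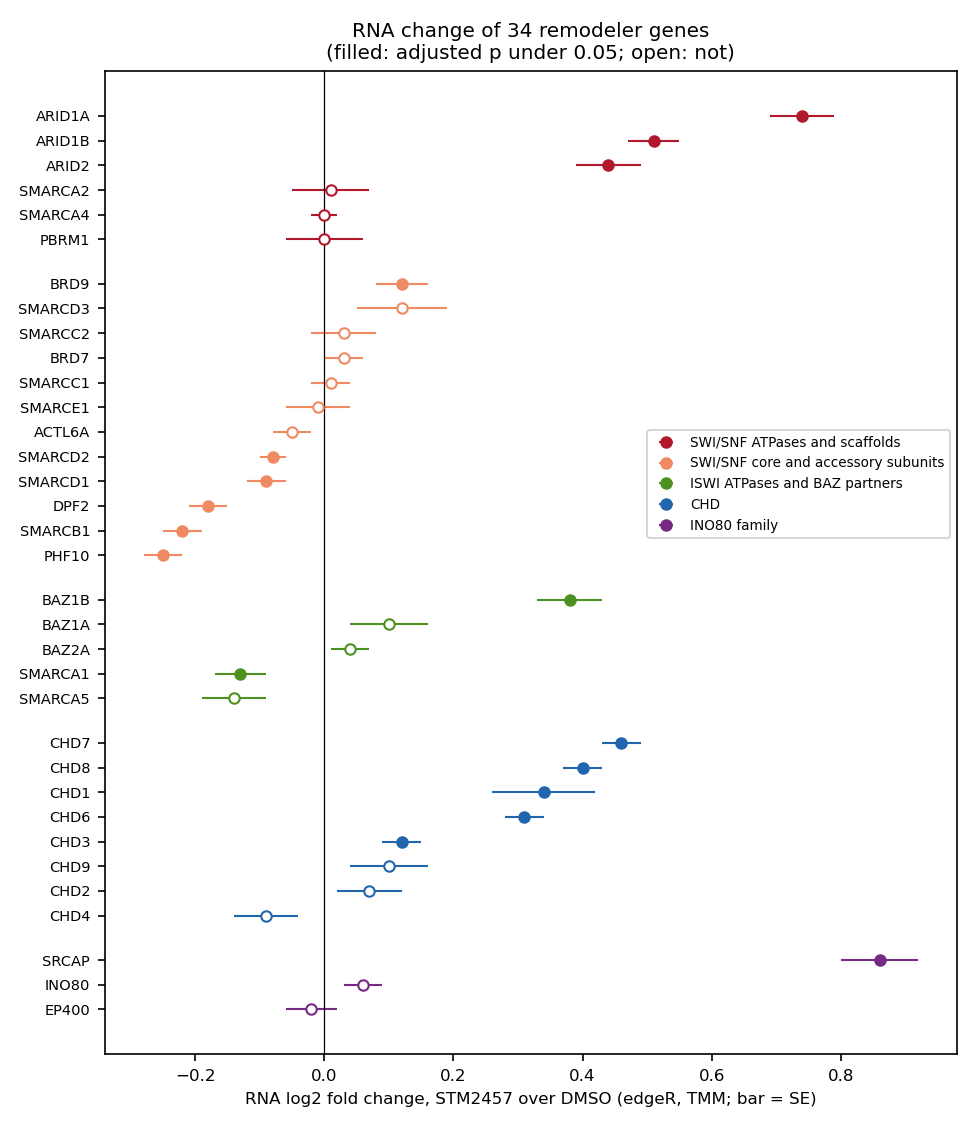
RNA log2 fold change of STM2457 over DMSO for each of the 34 genes, grouped and coloured by family (edgeR, TMM scaling, bar = SE, n = 4 libraries per arm), with filled points for adjusted p under 0.05. ARID1A, ARID1B and ARID2 lie between 0.44 and 0.74 while SMARCA4, SMARCA2 and PBRM1 lie within 0.01 of 0, and all of these except the ARID genes turn negative (-0.19 to -0.20) with spike-in scaling.

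Among the SWI/SNF ATPases and large scaffolds, the 3 ARID subunits rose and the other 3 genes did not pass the test, where 26.2% of all genes rose. ARID1A, a DNA-binding subunit that defines canonical SWI/SNF complexes, was at 202, 182, 185 and 192 CPM in the 4 STM2457 libraries, against 116, 107, 110 and 124 CPM in the 4 DMSO libraries. The arms were far apart, and the fold change was 1.67 (log2 0.74, SE 0.05, edgeR adjusted p = 4.61e-08). ARID1B, its mutually exclusive paralog, was at 116, 109, 101 and 104 CPM with STM2457, against 77.8, 74.6, 72.1 and 76.3 CPM with DMSO. Again no library of the arms overlapped (log2 fold change 0.51, SE 0.04, edgeR adjusted p = 5.21e-07). ARID2, the corresponding subunit of polybromo SWI/SNF, was at 59.8, 59.0, 50.2 and 57.6 CPM with STM2457, against 42.0, 43.9, 41.3 and 39.6 CPM with DMSO. The lowest STM2457 library stood above the highest DMSO library (log2 fold change 0.44, SE 0.05, edgeR adjusted p = 1.64e-05). On the spike-in scale the log2 changes of ARID1A, ARID1B and ARID2 were 0.54, 0.32 and 0.25, and each still passed the test.

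The ATPases were level in CPM beside them. SMARCA4, an ATPase that drives SWI/SNF complexes, was at 271, 264, 264 and 270 CPM with STM2457, against 269, 266, 259 and 276 CPM with DMSO, so the arms overlapped throughout. Its log2 fold change was 0.00 to the second decimal with an SE of 0.02. In the authors' normalized RNA signal of the series table SMARCA4 was slightly lower with STM2457 (log2 -0.07, SE 0.02, limma adjusted p = 0.0291). SMARCA2, the alternative ATPase, averaged 33.5 ± 3.44 CPM with STM2457 and 33.3 ± 0.828 CPM with DMSO (SD, n = 4 each). PBRM1, the polybromo subunit that binds acetylated histones, averaged 101 ± 9.66 CPM with STM2457 and 101 ± 4.22 CPM with DMSO. With spike-in scaling SMARCA4, SMARCA2 and PBRM1 were lower, at log2 changes of -0.20, -0.19 and -0.20, each with an edgeR adjusted p under 0.05.

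**Figure D2:**
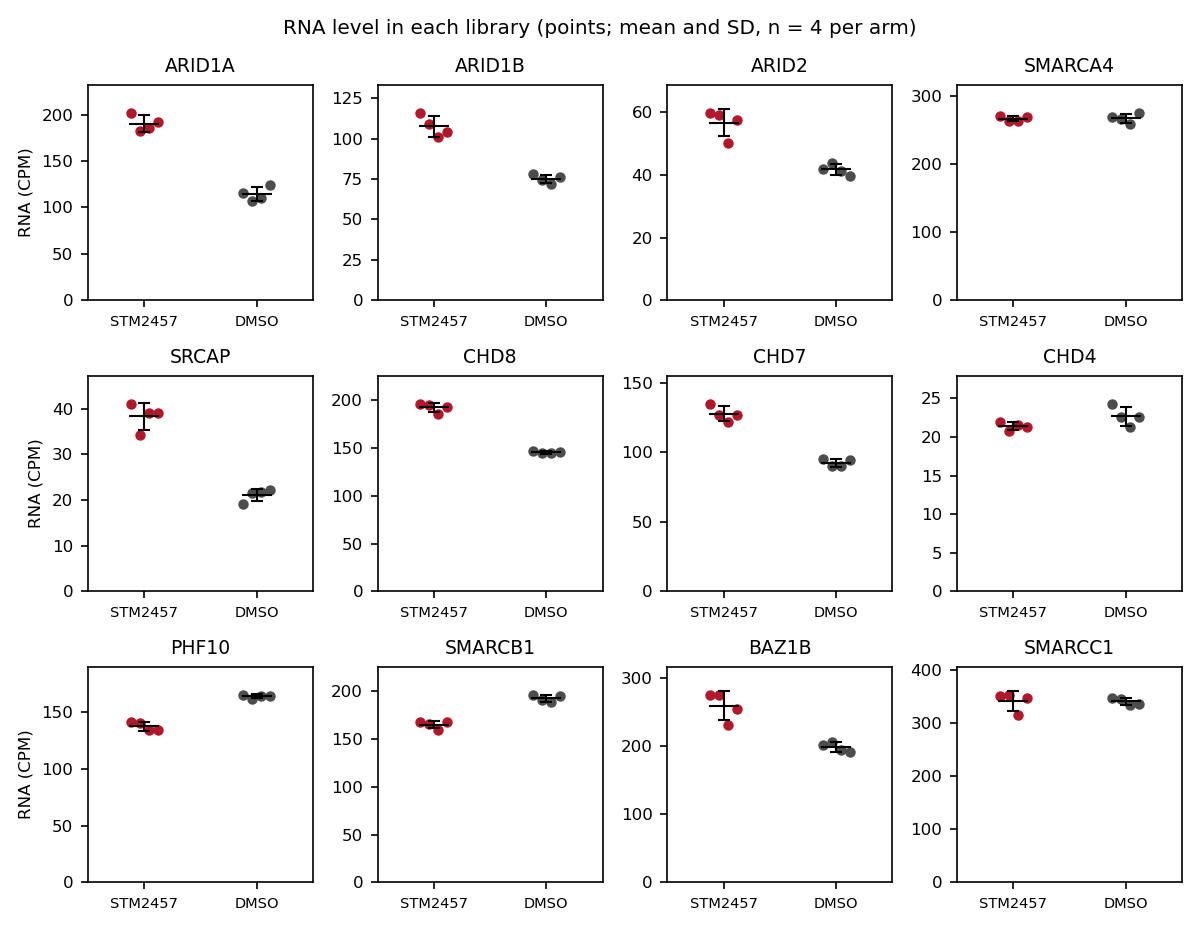
RNA level in CPM (TMM factors) of 12 remodeler genes in each library, with STM2457 left of DMSO, points for libraries and bars for the mean and SD (n = 4 per arm). ARID1A, ARID1B, ARID2, SRCAP, CHD7, CHD8 and BAZ1B have no overlap between arms and lie higher with STM2457, PHF10 and SMARCB1 have none and lie lower, and SMARCA4, SMARCC1 and CHD4 overlap.

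Of the 12 core and accessory subunits of SWI/SNF 5 fell, 1 rose and 6 did not pass the test, where 21.6% of all genes fell and 26.2% rose. On the spike-in scale 10 of the 12 were lower and none higher, where 8383 of all 17807 genes were lower and 2159 higher. PHF10, a PHD-finger subunit of polybromo SWI/SNF, was at 141, 140, 134 and 134 CPM with STM2457, against 165, 161, 164 and 164 CPM with DMSO. The arms did not overlap and the log2 fold change was -0.25 (SE 0.03, edgeR adjusted p = 4.09e-06). SMARCB1, a core subunit that contacts the nucleosome and is lost in rhabdoid tumours, was at 167, 165, 159 and 167 CPM with STM2457, against 196, 190, 188 and 195 CPM with DMSO. All 4 STM2457 libraries were below every DMSO library (log2 fold change -0.22, SE 0.03, edgeR adjusted p = 1.28e-05). DPF2, a histone-reading subunit of canonical SWI/SNF, was at 87.5, 84.1, 87.2 and 87.9 CPM with STM2457, against 100, 94.6, 98.1 and 101 CPM with DMSO. It fell by 0.18 on the log2 scale (SE 0.03, edgeR adjusted p = 0.00017), again without overlap.

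SMARCD1 and SMARCD2, alternative members of one subunit position, fell by 0.09 and 0.08 on the log2 scale, and both had arms that did not overlap. SMARCD2 no longer passed without STM2457 replicate 4 (edgeR adjusted p = 0.0596). BRD9, the bromodomain subunit that marks the non-canonical complex, was at 62.7 ± 1.67 CPM with STM2457 and 57.7 ± 3.43 CPM with DMSO (SD, n = 4 each), with overlapping arms (edgeR adjusted p = 0.0299). Its call was lost when DMSO replicate 1, 2 or 4 or STM2457 replicate 4 was left out (edgeR adjusted p = 0.0918, 0.0635, 0.0606 and 0.0785), although the log2 change was 0.09, 0.12, 0.11 and 0.11 without them against 0.12 with all libraries. It turned to -0.08 with spike-in scaling. The remaining 6 did not pass the test. SMARCC1 and SMARCC2, paired scaffolds of the core, had log2 fold changes of 0.01 and 0.03. BRD7 of polybromo SWI/SNF was at 0.03, SMARCD3 at 0.12 and the actin-related ACTL6A at -0.05. In the RNA signal of the series table ACTL6A was lower (log2 -0.13, limma adjusted p = 0.00227). SMARCE1, an HMG-box subunit, was at 12.7 ± 0.303 CPM with STM2457 and 12.8 ± 0.27 CPM with DMSO (SD, n = 4 each), a log2 difference of -0.01. Its deposited counts were few beside its RNA signal in the series table, with a ratio of 0.175 against a median of 2.57 over the members. CHD4 had a ratio of 0.89, the other 32 genes lay between 2.1 and 4.3, and 1.52% of all genes in the table lay under 1, so the RNA values of SMARCE1 and CHD4 are uncertain. In the table's RNA signal both had a lower mean with STM2457, SMARCE1 by a log2 change of -0.09 (limma adjusted p = 0.0254) and CHD4 by -0.13 (limma adjusted p = 0.0372).

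In the ISWI group 1 gene rose, 1 fell and 3 did not pass the test, where 26.2% of all genes rose and 21.6% fell. On the spike-in scale SMARCA5 and BAZ2A were lower as well (log2 -0.33 and -0.15). BAZ1B, a partner of the ISWI ATPase SMARCA5 that lies in the Williams syndrome deletion, was at 276, 276, 232 and 255 CPM with STM2457, against 202, 207, 195 and 192 CPM with DMSO. The arms did not overlap, although STM2457 replicate 3 stood well below the other 3 (log2 fold change 0.38, SE 0.05, edgeR adjusted p = 3.52e-05). SMARCA1, the ISWI ATPase SNF2L, was at 77.6, 77.4, 69.5 and 74.5 CPM with STM2457, against 83.8, 84.2, 79.5 and 80.0 CPM with DMSO. It fell by 0.13 on the log2 scale (SE 0.04, edgeR adjusted p = 0.0127). SMARCA5, the more widely used ATPase SNF2H, was at 202, 208, 169 and 193 CPM with STM2457, against 217, 223, 207 and 201 CPM with DMSO. The arms overlapped and the change missed the threshold (log2 -0.14, SE 0.05, edgeR adjusted p = 0.0585). DESeq2 gave an adjusted p of 0.0377, and edgeR 0.0313 without DMSO replicate 4 and 0.0198 without STM2457 replicate 2. In the RNA signal of the series table SMARCA5 was lower (log2 -0.20, limma adjusted p = 0.00643). BAZ1A, the ACF partner of SMARCA5, had a log2 fold change of 0.10 and BAZ2A, the rDNA-silencing partner, 0.04. BAZ1A passed only without STM2457 replicate 3 among the fits that leave out 1 library (log2 0.16, edgeR adjusted p = 0.00488).

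The CHD family leaned higher, with 5 of 8 genes that rose, none that fell and a median log2 fold change of 0.22. Over all genes 26.2% rose and 21.6% fell, with a median of 0.00. With spike-in scaling CHD7 and CHD8 remained higher, CHD1 and CHD6 no longer passed (log2 0.14 and 0.12) and CHD3 turned to -0.07, while CHD2 and CHD4 were lower (log2 -0.13 and -0.28, edgeR adjusted p = 0.0415 and 0.00105). CHD7, the gene mutated in CHARGE syndrome, was at 135, 127, 122 and 127 CPM with STM2457, against 95.4, 90.1, 90.0 and 94.7 CPM with DMSO. The libraries separated cleanly by arm (log2 fold change 0.46, SE 0.03, edgeR adjusted p = 2.09e-07). CHD8, a frequent target of mutations in autism, was at 196, 195, 185 and 192 CPM with STM2457, against 147, 144, 144 and 146 CPM with DMSO. The spread inside each arm was small beside the 1.32-fold difference (log2 0.40, SE 0.03, edgeR adjusted p = 3.96e-08). CHD6 was at 65.8, 63.8, 64.8 and 67.2 CPM with STM2457, against 51.8, 50.9, 52.5 and 55.1 CPM with DMSO, also without overlap (log2 fold change 0.31, SE 0.03, edgeR adjusted p = 4.57e-06).

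CHD1, which reads methylated histone H3 at active genes, was at 142, 145, 110 and 131 CPM with STM2457, against 110, 110, 97.3 and 99.9 CPM with DMSO. STM2457 replicate 3 reached into the DMSO range, and the gene passed the test in spite of that (log2 fold change 0.34, SE 0.08, edgeR adjusted p = 0.00239). CHD9 was at 56.0, 56.3, 45.6 and 54.7 CPM with STM2457, against 49.9, 50.1, 51.5 and 47.4 CPM with DMSO. Here STM2457 replicate 3 was the lowest of the 8 libraries, and the gene passed only without it among the fits that leave out 1 library (log2 0.16, edgeR adjusted p = 0.00131, against 0.195 with all 8). CHD2 likewise passed only without that library (log2 0.12, edgeR adjusted p = 0.0131). CHD3 and CHD4 are the NuRD ATPases of the family. CHD3 averaged 143 ± 3.29 CPM with STM2457 and 131 ± 2.06 CPM with DMSO (SD, n = 4 each; log2 fold change 0.12, edgeR adjusted p = 0.00136). CHD4 averaged 21.4 ± 0.484 CPM with STM2457 and 22.7 ± 1.24 CPM with DMSO, with the limit on its counts given above.

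In the INO80 family SRCAP had the largest RNA log2 fold change of the 34 genes in the gene counts, and the other ATPases did not pass the test. SRCAP, which deposits the histone variant H2A.Z, was at 41.1, 34.2, 39.1 and 39.0 CPM with STM2457, against 19.1, 21.6, 21.7 and 22.1 CPM with DMSO. Every STM2457 library was above every DMSO library and the fold change was 1.81 (log2 0.86, SE 0.06, edgeR adjusted p = 1.38e-07). It was 0.66 on the spike-in scale. In the RNA signal of the series table the log2 change of SRCAP was 0.64 (SE 0.08), below the 0.68 of ARID1A (SE 0.05). INO80, the ATPase of the complex of that name, was at 51.5, 53.2, 49.7 and 50.8 CPM with STM2457, against 48.5, 51.3, 50.0 and 47.6 CPM with DMSO. EP400, the ATPase of the TIP60 acetyltransferase complex, was at 98.9, 88.5, 94.6 and 93.8 CPM with STM2457, against 93.4, 91.8, 93.1 and 102 CPM with DMSO. Both sets overlapped, with log2 fold changes of 0.06 for INO80 and -0.02 for EP400, which stood at -0.14 and -0.21 with spike-in scaling.

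Ratios of related subunits inside a library, which do not depend on the scaling between libraries, were compared for 15 pairs. In 6 pairs the arms did not overlap, which gives the smallest p that 4 against 4 libraries allow (0.0286, exact two-sided permutation test). None passed after Benjamini-Hochberg adjustment over the 15 (adjusted p = 0.0714 for those 6 by the exact permutation test). With 6 of 15 pairs at this floor none could pass, whatever the size of its difference, so no conclusion is drawn from that failure. The log2 ratio of SRCAP to EP400 averaged -1.29 with STM2457 and -2.17 with DMSO, a difference of 0.87 (SE 0.05). The log2 ratio of ARID1A to ARID1B was 0.80, 0.75, 0.88 and 0.88 with STM2457, against 0.58, 0.51, 0.60 and 0.70 with DMSO, a difference of 0.23 (SE 0.05). For BAZ1B over BAZ1A the mean log2 ratios were 1.29 with STM2457 and 1.01 with DMSO, and for CHD1 over CHD2 they were 0.76 and 0.50 in that order of arms. The log2 ratio of CHD4 to CHD3 was lower with STM2457 in every library, at a mean of -2.74 against -2.53 with DMSO, with the limit on CHD4 counts given above. That of CHD8 to CHD7 differed by -0.06, which is small although the arms did not overlap. The arms overlapped in the RNA ratio of SMARCA4 to SMARCA2, whose log2 value averaged 3.00 with STM2457 and 3.00 with DMSO (difference SE 0.07). Which ATPase the complexes held was not measured. SMARCA5 over SMARCA1 averaged 1.36 with STM2457 and 1.37 with DMSO (difference SE 0.03), and SMARCD1 over SMARCD2 0.43 with STM2457 and 0.44 with DMSO (difference SE 0.04).

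**Figure D3:**
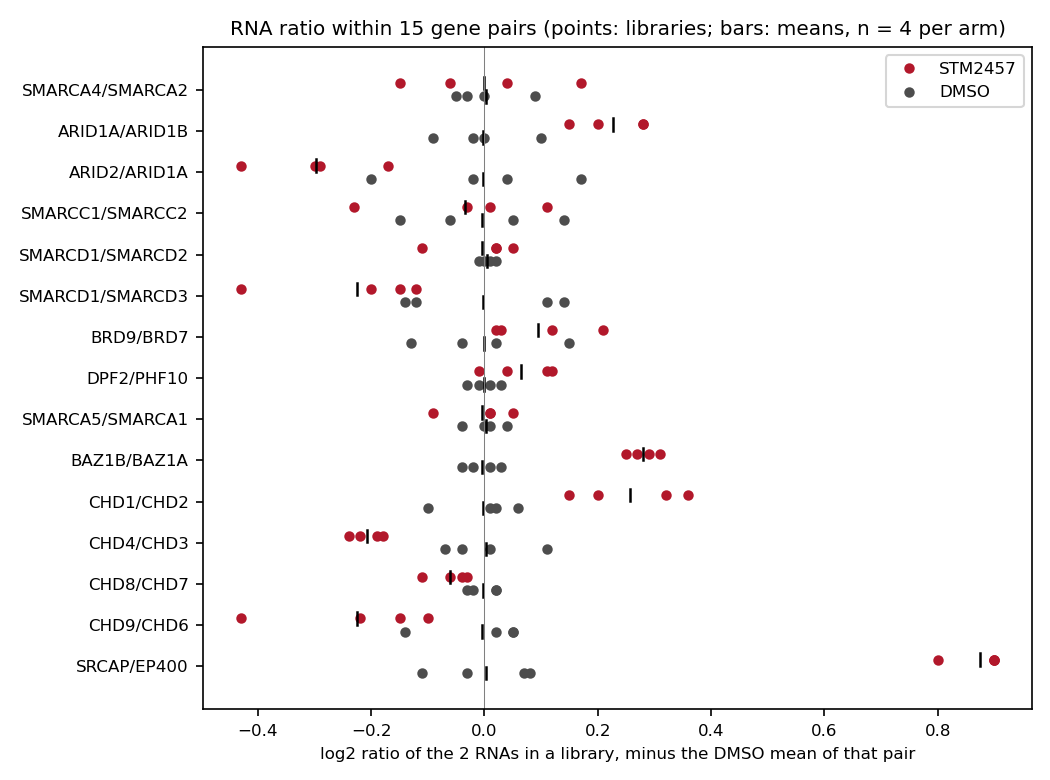
Log2 ratio of the 2 RNAs of each of 15 pairs in each library, minus the DMSO mean of that pair, with STM2457 above DMSO in each row, points for libraries and bars for means (n = 4 per arm). SRCAP/EP400 stands farthest from 0 in the STM2457 libraries, and the ATPase pairs SMARCA4/SMARCA2 and SMARCA5/SMARCA1 overlap between arms.

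Footprints, the count of ribosome-protected fragments normalized by the authors, were higher with STM2457 for 8 of the 34 genes and lower for none at an adjusted p under 0.05 (limma on log2(signal + 1) with a mean-variance trend, 10906 genes). That is 23.5% of the members, against 9.59% higher and 6.13% lower among all genes tested (15.7% in either direction). In 9 members both STM2457 libraries were above both DMSO libraries and in 14 both were below, against 25.7% and 28.4% of all genes. At an unadjusted p under 0.05 there were 15 members in either direction, against 2943 of all 10906 genes. An edgeR test of the reads recovered from the signal also gave 8 higher and none lower, with 10.2% higher and 5.57% lower among all genes. The same limma test without the trend called none of the 34 genes, and 168 higher and 64 lower genes in all. The trend was chosen after the calls of both versions had been seen, so the 8 calls depend on that choice. Of the 8 genes 5 are CHD helicases, and none of the 12 core and accessory SWI/SNF subunits is among them.

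ARID1A had a footprint signal of 4250 and 4100 with STM2457, against 2650 and 2810 with DMSO. Its footprints were well separated between arms (log2 fold change 0.62, SE 0.10, limma adjusted p = 2.16e-06). CHD8 had a signal of 4170 and 4150 with STM2457, against 2870 and 2710 with DMSO. The replicates nearly coincided inside the STM2457 arm (log2 fold change 0.58, SE 0.10, limma adjusted p = 7.43e-06). CHD7 had a signal of 2530 and 2260 with STM2457, against 1780 and 1580 with DMSO, a log2 fold change of 0.51 (SE 0.11, limma adjusted p = 0.000534). CHD1 had 3350 and 3150 with STM2457, against 2310 and 2400 with DMSO, a log2 fold change of 0.46 (SE 0.10, limma adjusted p = 0.00055). BAZ1B had 5670 and 5260 with STM2457, against 4200 and 4260 with DMSO, a log2 fold change of 0.37 (SE 0.09, limma adjusted p = 0.0023). These 5 passed whichever single footprint library was left out.

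The other 3 calls were lost when some single libraries were left out, while all their log2 changes stayed positive. CHD6 had a signal of 862 and 781 with STM2457, against 669 and 492 with DMSO (log2 fold change 0.52, SE 0.16, limma adjusted p = 0.0184), and the change was 0.29 without DMSO replicate 2 (limma adjusted p = 0.422) and 0.44 without STM2457 replicate 1 (limma adjusted p = 0.112). CHD9 had 877 and 878 with STM2457, against 669 and 588 with DMSO (log2 fold change 0.48, SE 0.15, limma adjusted p = 0.0183). It missed the threshold without DMSO replicate 2, STM2457 replicate 1 or STM2457 replicate 2 (log2 0.39, 0.48 and 0.48, limma adjusted p = 0.221, 0.0596 and 0.0615). ARID1B had 1360 and 1480 with STM2457, against 1160 and 1020 with DMSO (log2 fold change 0.38, SE 0.13, limma adjusted p = 0.028), and missed it without DMSO replicate 2 or STM2457 replicate 2 (log2 0.30 and 0.33, limma adjusted p = 0.301 and 0.146). ARID2, with 1310 and 1180 with STM2457 and 985 and 993 with DMSO, did not overlap between arms either but missed the threshold with all libraries (log2 0.33, limma adjusted p = 0.0799).

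**Figure D4:**
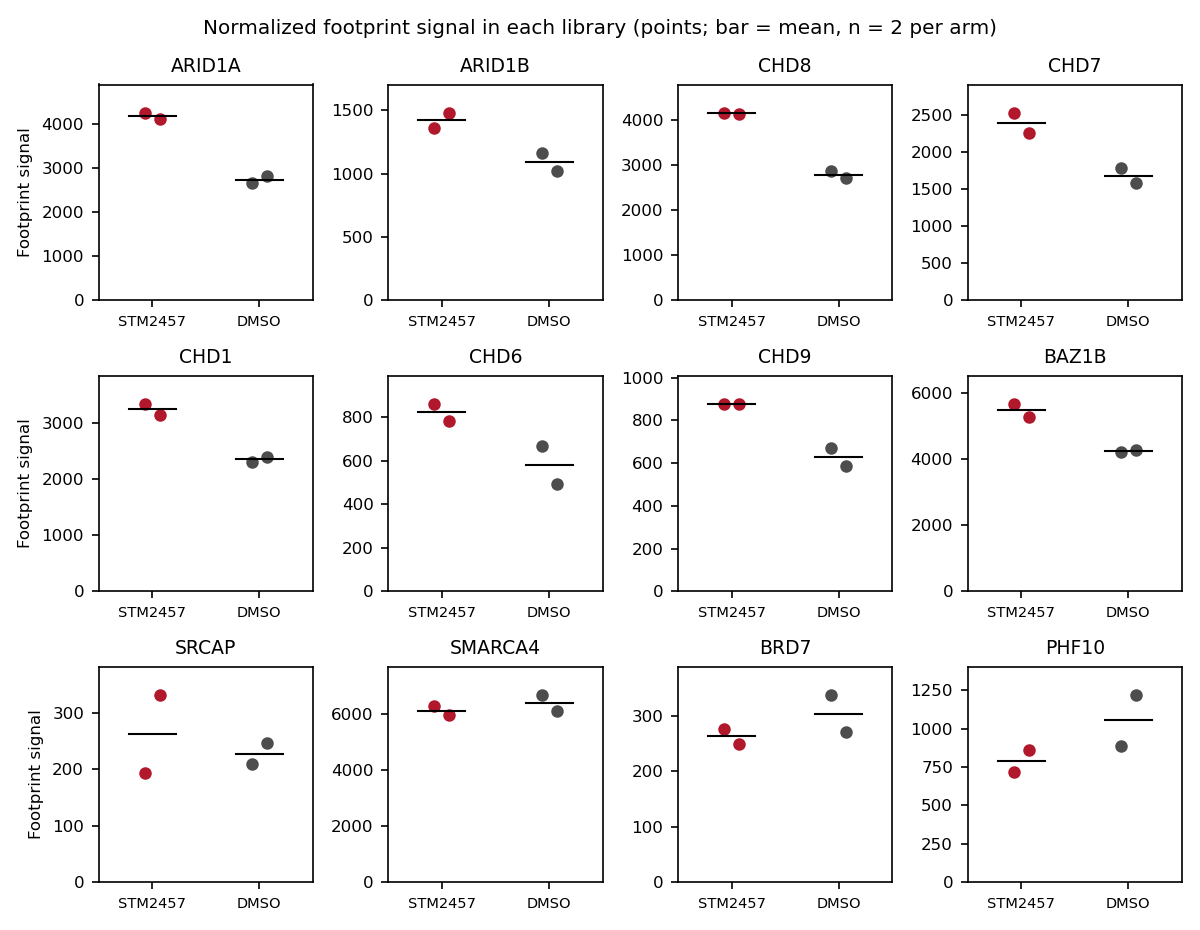
Normalized footprint signal of 12 remodeler genes in each Ribo-seq library, with STM2457 left of DMSO, points for libraries and bars for means (n = 2 per arm). ARID1A, ARID1B, BAZ1B and the CHD genes shown have both STM2457 libraries above both DMSO libraries, whereas those of SRCAP, SMARCA4 and BRD7 overlap.

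Of the 12 core and accessory SWI/SNF subunits 11 had a footprint log2 change below 0, with a median of -0.21, and none passed the test. Over all 10906 genes 5795 lay below 0, with a median of -0.02. PHF10 had a signal of 718 and 863 with STM2457, against 885 and 1220 with DMSO (log2 -0.40, SE 0.15, limma adjusted p = 0.0548). It passed without DMSO replicate 1 (log2 -0.63, limma adjusted p = 0.00792) and without STM2457 replicate 2 (log2 -0.53, limma adjusted p = 0.0137). SMARCC2 had 1340 and 1350 with STM2457, against 1730 and 1630 with DMSO (log2 -0.32, SE 0.12, limma adjusted p = 0.0553), whereas its RNA log2 change was 0.03. DPF2 had 1300 and 1620 with STM2457, against 1940 and 1650 with DMSO (log2 -0.30, limma adjusted p = 0.0871), and passed without STM2457 replicate 2 (log2 -0.46, limma adjusted p = 0.00856). ACTL6A passed without STM2457 replicate 1 (log2 -0.35, limma adjusted p = 0.033, against -0.22 and 0.178 with all libraries).

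Across the 34 genes the footprint change correlated with the RNA change (Pearson's r = 0.775, Spearman's rho = 0.721). This is a description over genes measured in the same cells, which are not independent replicates. Both changes had the same sign in 24 of the 34 genes. Of the 11 genes that rose in RNA, 9 had a positive footprint change and BRD9 and CHD3 a negative one. All 6 that fell in RNA had a negative footprint change, none of which passed the footprint test. SRCAP and CHD9 lay farthest from equality. SRCAP had a footprint signal of 194 and 332 with STM2457, against 209 and 246 with DMSO, from 51 and 85 reads with STM2457 and 65 and 51 reads with DMSO. Its STM2457 libraries lay on either side of both DMSO libraries, and at this depth the footprint log2 change of 0.16 had an SE of 0.25.

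**Figure D5:**
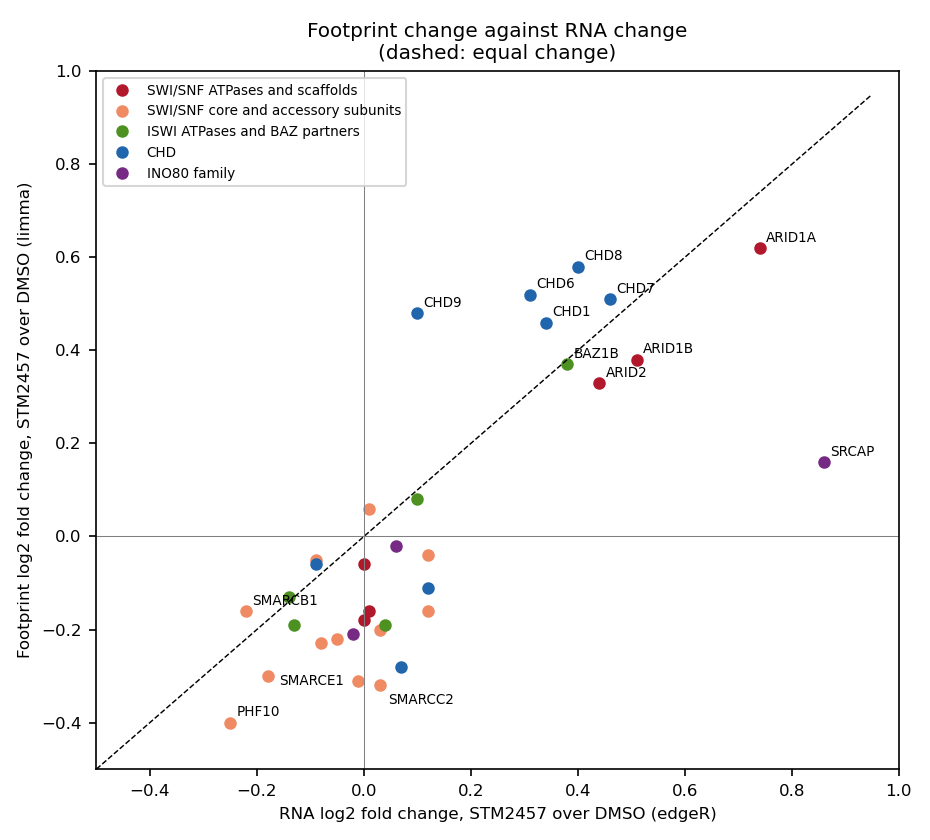
Footprint log2 fold change (limma, n = 2 per arm) against RNA log2 fold change (edgeR, n = 4 per arm), both STM2457 over DMSO, for the 34 genes coloured by family, with a dashed line of equal change. The CHD genes CHD1, CHD6, CHD7, CHD8 and CHD9 lie above the line at footprint changes of 0.46 to 0.58. SRCAP lies below it at 0.86 in RNA and 0.16 in footprints. RNA changes here come from the gene counts and footprint changes from the series table. In the RNA signal of that table SRCAP changed by 0.64, and these CHD genes by -0.02 (CHD9) to 0.39 (CHD7).

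Translational efficiency, the footprint signal relative to the RNA signal of the series table, changed for none of the 34 genes at an adjusted p under 0.05 (limma interaction of assay and treatment with a weight per assay). Over all 10906 genes 0.229% were higher and 0.807% lower by that test (1.04% in all). Before adjustment 1025 of all 10906 genes were under 0.05, and among the members CHD8 alone. Its log2 change of efficiency was 0.24 (SE 0.09, limma adjusted p = 0.342). CHD9 had the largest positive estimate (0.50, SE 0.24, limma adjusted p = 0.54) and SRCAP the largest negative one (-0.48, SE 0.32, limma adjusted p = 0.742). An edgeR interaction on counts and recovered reads called none either, with adjusted p = 0.0983 for CHD8 and 0.161 for CHD9. Both passed when RNA and footprint libraries were given a shared spread (limma adjusted p = 0.0126 for CHD8 and 0.0263 for CHD9). Of the 8 CHD genes 6 had a positive estimate, with a median of 0.16, and of the 18 SWI/SNF genes 14 had a negative one, with a median of -0.07. Over all 10906 genes 5578 estimates were positive and 5328 negative, with a median of 0.01.

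In the authors' deposited table the efficiency of the members in the DMSO arm had a median of 0.937, against 1.01 over all genes of the table. The values of single members in the authors' deposited table spanned 0.103 for BRD7 to 1.82 for ACTL6A with DMSO. BRD7, a bromodomain subunit of polybromo SWI/SNF, stood at 0.0893 with STM2457 and 0.103 with DMSO in the authors' deposited table. Its footprint signal was 277 and 250 with STM2457, against 338 and 270 with DMSO, so the arms overlapped, and its low ratio was common to both arms. SMARCD3 had 0.275 with STM2457 and 0.295 with DMSO in the authors' deposited table, and CHD3 0.363 and 0.407 in the same order. SMARCB1, at 1.77 with STM2457 and 1.61 with DMSO, and SMARCC1, at 1.56 with STM2457 and 1.42 with DMSO, stood at the high end of the authors' deposited table among the members. The largest changes there were 0.52 for CHD9 and -0.49 for SRCAP on the authors' log2 scale, which the authors' deposited table gives without an error.

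The further subunits of the same complexes, 67 genes listed apart from the 34, all passed the RNA filter. Of these 26 rose and 14 fell, or 38.8% and 20.9%, against 26.2% and 21.6% of all genes, with a median log2 change of 0.02. Of the 11 other SWI/SNF subunits 5 rose and 3 fell. BCL7A, a small subunit of SWI/SNF, was at 119 ± 1.57 CPM with STM2457 and 71 ± 1.97 CPM with DMSO (SD, n = 4 each; log2 0.74, edgeR adjusted p = 3.86e-10). BICRAL, a scaffold of the non-canonical complex, was at 22.6 ± 1.03 CPM with STM2457 and 12.9 ± 0.194 CPM with DMSO (log2 0.81, edgeR adjusted p = 1.53e-08). Of the 8 other ISWI subunits 6 rose and none fell, with CECR2, a bromodomain partner, at a log2 change of 0.49 (edgeR adjusted p = 7.45e-07) and POLE3, a histone-fold subunit of CHRAC, at 0.16 (edgeR adjusted p = 0.000296). At an unadjusted p under 0.05 the edgeR count in that list was also 6 of 8, against 9569 of all 17807 genes.

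The NuRD list, the complex that holds CHD3 and CHD4, had 1 of 11 genes that rose and 3 that fell. For this and the following lists the RNA shares over all genes were 26.2% higher and 21.6% lower. MTA3, a scaffold of NuRD, was at 32.2 ± 0.583 CPM with STM2457 and 42.7 ± 0.771 CPM with DMSO (SD, n = 4 each; log2 -0.41, edgeR adjusted p = 2.95e-07). MBD2, a methyl-CpG-binding subunit, was at 33.1 ± 1.03 CPM with STM2457 and 39.7 ± 1.17 CPM with DMSO (log2 -0.26, edgeR adjusted p = 6.18e-05). Of the 28 subunits of the INO80, SRCAP and TIP60 complexes 10 rose and 7 fell. YY1, a transcription factor that is also an INO80 subunit, was at 339 ± 5.15 CPM with STM2457 and 215 ± 1.65 CPM with DMSO (log2 0.66, edgeR adjusted p = 1.38e-10). MRGBP of the TIP60 complex was at 80.1 ± 1.54 CPM with STM2457 and 62.3 ± 2.24 CPM with DMSO (log2 0.36, edgeR adjusted p = 9.68e-07). Of 9 other SNF2 ATPases 4 rose and 1 fell, with ERCC6, which acts in transcription-coupled repair, at a log2 change of 0.42 (edgeR adjusted p = 6.43e-06) and the transcription terminator TTF2 at 0.14 (edgeR adjusted p = 0.00204). In footprints 7 of the 64 tested genes of these lists were higher and 2 lower by limma, or 10.9% and 3.12%, close to the 9.59% and 6.13% of all genes, and edgeR on recovered reads gave 7 higher and 0 lower. YY1 had a mean footprint signal of 4590 with STM2457 and 3330 with DMSO (log2 0.46, limma adjusted p = 0.000229), and BCL7A 969 with STM2457 and 664 with DMSO (log2 0.54, limma adjusted p = 0.00569). MTA3 had 513 with STM2457 and 710 with DMSO (log2 -0.48, limma adjusted p = 0.0398), and missed the threshold with edgeR (adjusted p = 0.0572).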

How the data were processed

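RNA-seq (poly(A)-selected, strand-specific) and Ribo-seq libraries were grouped by the labels into STM2457 and DMSO arms. The deposited RNA files hold raw read counts per gene with 92 ERCC sequences. The series table holds normalized signal per library, which the authors made; its columns named WT are the DMSO arm. It also holds the authors' efficiency, a ratio of mean footprint to mean RNA signal, and its log2 change as deposited by the authors without a p-value. The genome build was GRCh38.p12, per the submitters' processing notes, which name STAR 2.7.3a and Subread 2.0.3 (featureCounts) as well as UMI-tools 1.1.2 but not which step each served. Why the deposited counts and the table's RNA signal differ in ratio between genes is not given in the sources used here.

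RNA was tested with edgeR 4.0.16 (R 4.3.3, TMM, filterByExpr, 17807 genes). CPM used TMM factors, and pair ratios used log2 CPM with a prior count of 2. Footprints and efficiency were tested with limma 3.58.1 on log2(signal + 1) for the 10906 genes that averaged 10 or more recovered footprint reads, so fold changes are on that scale. All footprint values (100%) were within 0.1 of a whole read after division by the worth of 1 read. The limma fits were first run without a mean-variance trend. The trend was made the reported setting after those calls, and the tests on simulated data, had been seen. Alternatives included DESeq2 1.42.0, spike-in scaling and leaving out each library. The 34 members, the other lists, the pairs and the markers were chosen with earlier results of these data known. Values per library are given for the 3 genes of each family with the smallest RNA p and for every gene called in footprints, and the 2 genes with the smallest p of each other list are named. SMARCA4, SRCAP footprints and BRD7 were singled out after their values were seen, as were the promoters shown and the motifs searched. A further cell line marker is not reported here.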

Additional observations from a re-analysis of the deposited data

Results flagged for a closer look

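In each arm of 4 RNA libraries the gap of the most extreme library to its nearest neighbour was set against the range of the arm (Dixon's ratio). Of 68 groups of 4 checked, 5 were past the critical value, where chance gives about 3.4. SMARCC1 was at 314 CPM in STM2457 replicate 3 and 347 to 353 CPM in the other 3 STM2457 libraries. CHD9 was at 45.6 CPM in the same library and 54.7 to 56.3 CPM in the others of its arm. SMARCE1 was at 12.3 CPM in STM2457 replicate 1, with the others at 12.9 CPM, and CHD3 was at 148 CPM in that library, with the others at 141 to 142 CPM. EP400 was at 102 CPM in DMSO replicate 4 and at 91.8 to 93.4 CPM in the other DMSO libraries.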

How the results depend on the processing

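With ERCC spike-in scaling 7 members were higher and 20 lower in RNA, against 11 and 6 with TMM, and of all genes 2159 were higher and 8383 lower, against 4669 and 3842. Among genes called on either scale, 10 log2 changes turned negative, with SMARCA2 going to -0.19, PBRM1 to -0.20, SMARCC1 to -0.19, SMARCC2 to -0.16, BRD7 to -0.17, BRD9 to -0.08, BAZ2A to -0.15, CHD2 to -0.13, CHD3 to -0.07 and INO80 to -0.14. STM2457 replicate 4 had the highest spike-in share, and without it the spike-in scale gave 9 higher and 16 lower (2464 and 7517 of all genes), with PBRM1 at -0.17, SMARCC1 at -0.17, BRD7 at -0.14, BRD9 at -0.06, BAZ2A at -0.11 and CHD3 at -0.03. The RNA signal of the series table gave 9 higher and 11 lower with limma (2991 and 3769 of all genes). There SMARCA4, SMARCE1, ACTL6A, SMARCA5 and CHD4 were lower as well, and BRD9 and CHD3 no longer passed. Sign changes between 2 values that both missed the threshold were not counted. Of 544 RNA values of single genes under alternatives, 483 kept their direction and side of the threshold, as did 286 of 306 for footprints and 372 of 374 for efficiency. Footprint calls were 0 higher without a trend. Leaving out 1 footprint library gave 5 to 8 higher and 0 to 2 lower. Efficiency had 2 higher with a shared spread, where 339 of all genes were higher and 486 lower. The cause of these differences was not tested. For genes described above whose calls moved, adjusted p over all alternatives ran from 0.00461 to 0.54 for BRD9, 6.28e-05 to 0.229 for SMARCD2, 1.03e-05 to 0.138 for SMARCA5, 0.00283 to 0.722 for BAZ1A, 0.0131 to 0.908 for CHD2, 0.00131 to 0.842 for CHD9 and 0.000526 to 0.479 for CHD3 in RNA (edgeR, DESeq2 or limma). It reached 0.0816 for SMARCD1 (replicates 3 and 4 only), and 0.0648 for CHD1 and 0.0635 for CHD6 (both on the spike-in scale, edgeR). In footprints (limma or edgeR) they ran from 0.00423 to 0.422 for CHD6, 0.0149 to 0.221 for CHD9, 0.0231 to 0.301 for ARID1B, 0.00792 to 0.698 for PHF10, 0.00856 to 0.57 for DPF2 and 0.033 to 0.716 for ACTL6A. Same-numbered libraries did not pair clearly (correlations of 0.08 to 0.23 in RNA and 0.01 in footprints). A replicate block gave 13 higher and 7 lower members in RNA (adding SMARCD3, BAZ1A and SMARCA5, edgeR adjusted p = 0.0272, 0.0387 and 0.00189), 8 higher and 1 lower (PHF10, -0.40) in footprints and 0 in efficiency. Over all genes that block gave 5094 higher and 4448 lower in RNA, 1059 and 660 in footprints, and 21 and 97 in efficiency. For 4 of the 8 RNA libraries the best-correlated library of the other arm had the same number, which comes from the data and not from the design. RNA replicates 1 and 2 alone, an added alternative like replicates 3 and 4, the table's RNA signal, the missing trend and the spike-in scale without a library, gave 14 higher and 8 lower, and replicates 3 and 4 gave 10 and 5. Over all genes these splits gave 4333 higher and 3602 lower, and 3721 higher and 2770 lower, in that order. The spike-in, trend and split settings beyond the plan were chosen after seeing the data. Footprint depth limits SRCAP (51 to 85 reads), SMARCD3 (26 to 58) and BRD7 (56 to 105) most.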
